A study of Mus musculus with 14 samples.

Results

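The 1000 strong H3K4me3 summits with the widest spread between libraries of the same group are described here, in the prefrontal cortex of mice after social defeat stress. They were taken from the 61132 summits on chromosomes 1 to 19 whose mean normalised read count over 13 libraries was 50 or more, out of 153207 summits in 48695 called regions. The spread was the pooled within-group standard deviation (SD) of log2(normalised read count + 1). These 1000 summits are called members below, and 60132 strong summits were not chosen. The members were chosen by their own normalised read counts, so the spread of the members and the way libraries share it are a description, and no test was made on them. The labels describe adult male C57BL/6J mice of 10 to 12 weeks, with C57BL/6 in the strain field. CSDS10 mice (5 libraries) met an unfamiliar aggressive CD1 mouse once a day for 10 days and lived beside one behind a perforated barrier between meetings. CSDS30 mice (5 libraries) did so for 30 days, and in both groups the cortex was dissected 24 hours after the final defeat. Control mice (3 libraries) lived in divided cages with no aggressor. The replicates are numbered, but the labels do not tie each to an animal of its own, so a p-value here reflects how far these libraries differ, which may be technical.

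H3K4me3, the trimethylation of lysine at the fourth position of histone H3, is laid down by the SET1 and MLL methyltransferase complexes and sits on nucleosomes at the starts of active and poised genes. It is densest over CpG islands, stretches rich in CpG dinucleotides and in GC, to which CXXC-domain proteins bring those complexes. In cortex the mark is read from a mixture of neurons and glia, and in such bulk tissue fewer cells of a type and less mark per cell cannot be told apart.

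The members were split into 2 sets by a pattern over libraries. A component analysis of their within-group log2 deviations gave each library a weight and each summit a score, the sum of its deviations times the weights, with the sign set so that CSDS10 replicate 2 had a positive weight. There were 670 members with a score above 0 (positive members) and 330 with a score below 0 (negative members). Above its group's mean at 662 of the positive members, CSDS10 replicate 2 lay below it at 324 of the negative members. This library has the largest weight in the score, so these counts follow largely from the split. The promoters of 5 members are shown first because sequence content, which the choice did not use, differed between the sets. Each is the RefSeq window on GRCm38.p6, the same primary assembly as the mm10 of the deposited table, from 250 bases before to 50 bases after the gene's start and written 5′ to 3′ on the gene's strand. Capitals mark CpG dinucleotides. Ryr2 (chr13:12106896-12107195, minus strand) has the widest spread, Sncb (chr13:54766546-54766845, minus strand) the highest score and Cnksr3 (chr10:7212188-7212487, minus strand) the lowest score, all with the summit downstream of the window. Fam189a1 (chr7:65156479-65156778, minus strand) and Pprc1 (chr19:46056289-46056588, plus strand) are members of opposite sign whose summit lies inside the window, at -215 and -243 bases from the start, and were chosen after their values were seen.
Ryr2: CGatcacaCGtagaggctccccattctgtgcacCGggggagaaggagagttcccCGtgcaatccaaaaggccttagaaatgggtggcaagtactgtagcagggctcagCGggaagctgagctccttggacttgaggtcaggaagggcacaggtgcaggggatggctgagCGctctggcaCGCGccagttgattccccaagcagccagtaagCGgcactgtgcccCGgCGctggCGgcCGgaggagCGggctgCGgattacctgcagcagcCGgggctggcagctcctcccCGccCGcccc
Sncb: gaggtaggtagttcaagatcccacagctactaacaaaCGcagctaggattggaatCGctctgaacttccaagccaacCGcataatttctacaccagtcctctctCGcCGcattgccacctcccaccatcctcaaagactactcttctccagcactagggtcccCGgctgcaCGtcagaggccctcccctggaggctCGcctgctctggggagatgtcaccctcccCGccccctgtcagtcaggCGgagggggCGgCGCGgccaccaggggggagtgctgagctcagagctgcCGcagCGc
Cnksr3: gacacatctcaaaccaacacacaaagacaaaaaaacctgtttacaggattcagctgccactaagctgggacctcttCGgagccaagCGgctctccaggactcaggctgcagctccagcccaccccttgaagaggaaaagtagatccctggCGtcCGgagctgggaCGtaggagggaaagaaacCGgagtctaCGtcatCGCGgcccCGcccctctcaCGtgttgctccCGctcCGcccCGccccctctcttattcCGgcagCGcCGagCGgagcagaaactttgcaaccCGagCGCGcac
Fam189a1: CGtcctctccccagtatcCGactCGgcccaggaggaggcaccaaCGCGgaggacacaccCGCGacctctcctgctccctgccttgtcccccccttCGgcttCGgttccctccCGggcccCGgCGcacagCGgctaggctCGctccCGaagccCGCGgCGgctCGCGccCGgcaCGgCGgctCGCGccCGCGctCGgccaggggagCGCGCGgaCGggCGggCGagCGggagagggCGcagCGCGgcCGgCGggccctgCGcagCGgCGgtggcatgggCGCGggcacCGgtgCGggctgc
Pprc1: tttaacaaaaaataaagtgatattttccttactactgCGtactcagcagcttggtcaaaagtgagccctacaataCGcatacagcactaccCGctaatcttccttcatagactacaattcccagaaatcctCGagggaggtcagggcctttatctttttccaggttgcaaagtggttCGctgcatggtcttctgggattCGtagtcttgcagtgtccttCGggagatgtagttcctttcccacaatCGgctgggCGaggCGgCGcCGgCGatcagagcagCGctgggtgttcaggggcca
The Fam189a1 window had a GC content of 79.3% and 47 CpGs, and the Pprc1 window, of the same length, had 50% and 14 CpGs. The windows of Ryr2, Sncb and Cnksr3 had 65.3%, 62% and 60%, with 18, 15 and 21 CpGs. Htr6 (positive) and Cpt1a (negative), not printed, also have the summit inside the window and differed less. Their windows had 71% and 62.3%, with 29 and 22 CpGs.

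Between 4512817 reads (CSDS10 replicate 4) and 10887911 reads (control replicate 1) fell on the summits of a library. Totals averaged 7387010 ± 2192810 in CSDS10 (SD, n = 5), 8201730 ± 2280900 in CSDS30 (SD, n = 5) and 8778720 ± 2122680 in control (SD, n = 3). All libraries carry 1 batch date, so no batch could be compared. CSDS10 replicate 2 held 5677624 reads and CSDS30 replicate 2 held 4750679, and with CSDS10 replicate 4 these were the libraries with the fewest. The part of depth in the members' spread was not tested. CSDS10 replicate 2 and CSDS30 replicate 2 stood apart from the rest of their groups. The upper quartile of all summits over the lower quartile, a measure of how far strong summits rise above weak ones within a library, was 3.06 in CSDS10 replicate 2 and 2.28 in CSDS30 replicate 2, the ends of the range, and lay between 2.52 and 2.83 in the other 11 libraries. Of the fixed marker lists, 14 of 14 genes of excitatory neurons, 12 of 15 of inhibitory neurons, 9 of 12 of astrocytes, 14 of 18 of oligodendrocytes and 15 of 17 of endothelial and mural cells had a summit within 2 kb. The genes with no summit included Slc32a1, Sst and Vip of inhibitory neurons, Gfap and Aqp4 of astrocytes and Mog of oligodendrocytes. Microglia had 6 of 13, with Cx3cr1 and Csf1r among those with none, and blood 1 of 7, with the globin genes among those with none.

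The members shared 1 dominant pattern over the libraries within groups. The first component held 56.8% of their within-group variance, the second 11.1% and the third 7.13%. The largest positive weights were those of CSDS10 replicate 2 (0.62), CSDS30 replicate 5 (0.36), control replicate 2 (0.22) and CSDS30 replicate 1 (0.21). The largest negative weights were those of CSDS30 replicate 2 (-0.36), CSDS10 replicate 4 (-0.34) and control replicate 1 (-0.28). Since each group's mean was removed, the weights of a group sum to 0 and say nothing of differences between groups. The second component was led by CSDS30 replicate 2 (weight 0.78) and the third by CSDS10 replicate 4 (0.81). Each of these components was thus led by a library among those with the fewest reads on summits. At 654 members the first component held more than 50% of the summit's own within-group variance.

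At positive members the median normalised read count was 58.6, 95.99, 51.8, 44.04 and 52.04 in CSDS10 replicates 1 to 5, 64.99, 34.4, 49.4, 47.1 and 73.2 in CSDS30 replicates 1 to 5, and 46.1, 71.2 and 63.04 in control replicates 1 to 3. CSDS10 replicate 2 was above every other library, CSDS30 replicate 2 was below every other library, and the control libraries lay between 46.1 and 71.2. At negative members it was 59.1, 26.8, 61.7, 71.1 and 60.2 in CSDS10 replicates 1 to 5, 50.9, 65.6, 67.3, 63.3 and 43.5 in CSDS30 replicates 1 to 5, and 67.1, 43.4 and 52.7 in control replicates 1 to 3. There the order was turned round, with CSDS10 replicate 2 below every other library and CSDS10 replicate 4, CSDS30 replicate 3 and control replicate 1 at the top. The opposite order of the sets follows largely from the split by score. As group means, positive members had 60.5 ± 20.5 in CSDS10 (SD, n = 5), 53.8 ± 15.4 in CSDS30 (SD, n = 5) and 60.1 ± 12.8 in control (SD, n = 3), differences well within the spread of a group. Negative members had 55.8 ± 16.9 in CSDS10, 58.1 ± 10.4 in CSDS30 and 54.4 ± 11.9 in control. Without CSDS10 replicate 2 the CSDS10 means were 51.6 ± 6.0 at positive and 63.0 ± 5.5 at negative members (SD, n = 4). Without CSDS30 replicate 2 the CSDS30 means were 58.7 ± 12.5 at positive and 56.2 ± 11.01 at negative members (SD, n = 4).

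**Figure D1:**
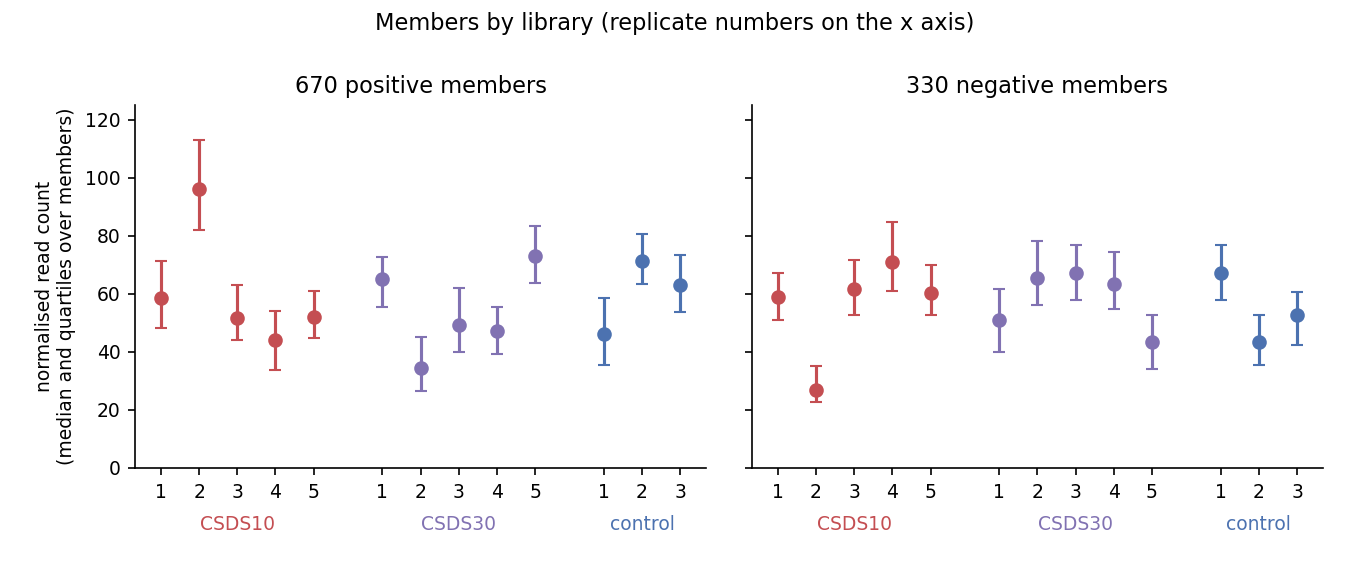
Median normalised read count of the 670 positive members (left) and the 330 negative members (right) in each library, with quartiles over members as bars; the x axis gives the replicate number within CSDS10, CSDS30 and control. CSDS10 replicate 2 is at 96.0 on the left and 26.8 on the right, the highest and the lowest of the 13 libraries.

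Counted summit by summit, CSDS10 replicate 2 had the largest upward deviation from its group mean at 418 of the 1000 members and the largest downward deviation at 222. CSDS30 replicate 2 had the largest downward deviation at 279 members. CSDS30 replicate 5 led upward at 129 and CSDS10 replicate 4 at 122. Over members, the deviations of CSDS10 replicate 2 had a correlation of 0.71 with those of CSDS30 replicate 5, 0.64 with control replicate 2 and -0.71 with control replicate 1 (Pearson's r, n = 1000 summits that share libraries and called regions, given as a description). When the members were chosen anew without CSDS10 replicate 2, 531 of the 1000 were chosen again and the first component held 43.1% of the variance, led by CSDS30 replicate 2 (weight -0.59) and CSDS30 replicate 5 (0.51). Without CSDS30 replicate 2, 705 were chosen again and the first component held 61.0%.

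The axis was also present outside the members. The first component of the 60132 strong summits not chosen, computed from their own values, held 29.7% of their within-group variance and weighted CSDS10 replicate 2 by 0.61, CSDS30 replicate 5 by 0.41 and CSDS30 replicate 2 by -0.41. Among the 88246 weaker summits of the same chromosomes it held 30.6%, with weights of 0.61, 0.31 and -0.23 for those 3 libraries. At 403 strong summits on chromosome X it held 33.7% and differed: CSDS10 replicate 2 had 0.38, CSDS30 replicate 2 had 0.44 and CSDS30 replicate 5 had -0.33. By the choice, the members' spread was wide: their SD ran from 0.481 to 0.825 with a median of 0.52, against 0.25 in strong summits not chosen, and was 2.6 times (median) the SD that counting reads alone would give, against 1.5 times in those not chosen. They were also weaker than the strong summits not chosen, with a median mean of 56.4 normalised reads against 75.4, and of the 1000 chosen with a mean of 100 or more, 9 were members.

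**Figure D2:**
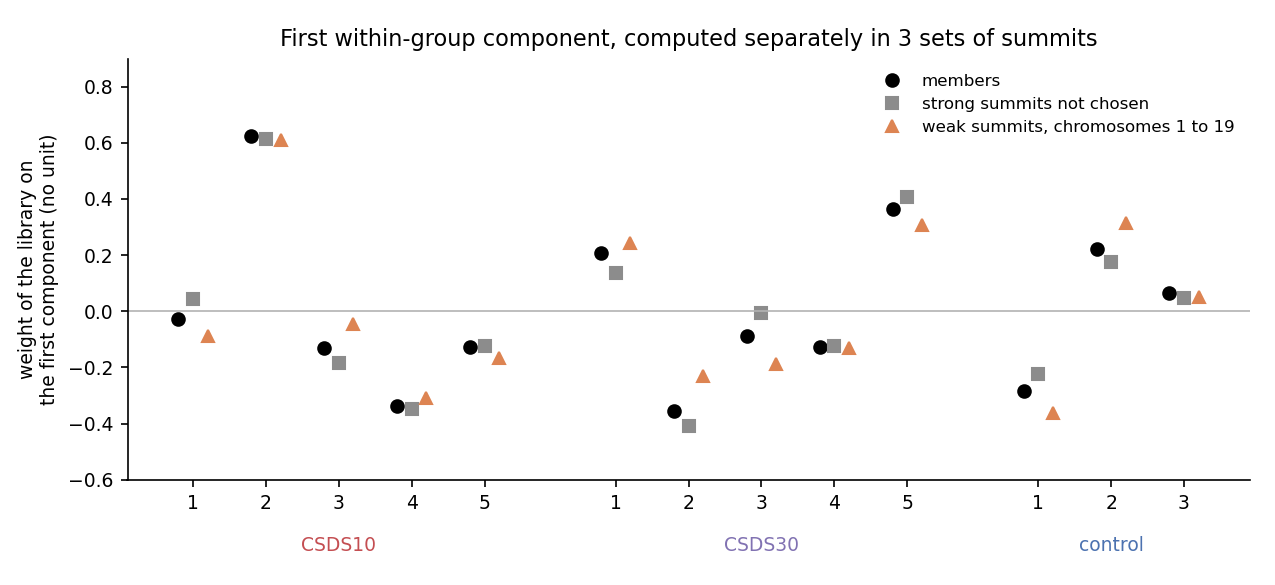
Weight of each library (x axis, replicate number within group) on the first within-group component, computed separately in the members, in the strong summits not chosen and in weak summits of chromosomes 1 to 19; weights have no unit. CSDS10 replicate 2 is near 0.6 in each of the 3 sets, and the weights of a group sum to 0 because its mean was removed.

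The highest scores among named protein-coding genes were those of Sncb, Kcnq5, Galnt13, Chrnb2, Ryr2 and Sgcz, and Ddn, Grin3a and Grin2a were positive members among the 10 genes with the widest spread. Sncb, on chromosome 13, encodes beta-synuclein, a presynaptic protein, and its summit lay 853 bases downstream of the gene's start. Its normalised read counts were 53.3, 113, 42.4, 44.04 and 31.7 in CSDS10 replicates 1 to 5, 51.7, 20.3, 30.5, 33.4 and 85.5 in CSDS30 replicates 1 to 5, and 23.1, 78.2 and 64.2 in control replicates 1 to 3. CSDS10 replicate 2 and CSDS30 replicate 5 were the highest of their groups, control replicate 1 was low beside the other controls, and the 3 groups overlapped. Kcnq5 encodes a voltage-gated potassium channel that carries the M-current, a brake on neuronal firing, and its strongest-scoring summit had 51.7, 124, 48.9, 28.8 and 37.4 in CSDS10 replicates 1 to 5, 73.6, 15.6, 32.6, 32.5 and 57.97 in CSDS30 replicates 1 to 5, and 46.1, 62.5 and 50.4 in control replicates 1 to 3. There CSDS10 replicate 2 was more than 2 times the next CSDS10 library, and CSDS30 replicate 2 was the lowest of the 13. Chrnb2, the beta2 subunit of nicotinic acetylcholine receptors, had 55.8, 139.7, 50.8, 37.3 and 51.2 in CSDS10 replicates 1 to 5, 83.00, 28.1, 38.9, 51.3 and 78.3 in CSDS30 replicates 1 to 5, and 41.2, 88.6 and 65.3 in control replicates 1 to 3. CSDS10 replicate 2 was the highest and CSDS30 replicate 2 the lowest of its group.

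Galnt13, an enzyme that starts O-linked glycosylation, had 47.6, 133, 57.4, 49.1 and 56.9 in CSDS10 replicates 1 to 5, 53.2, 21.9, 43.1, 43.6 and 81.2 in CSDS30 replicates 1 to 5, and 20.3, 64.3 and 82.5 in control replicates 1 to 3. CSDS10 replicate 2 was again far above, and control replicate 1 far below, the rest of their groups. Ryr2, a calcium release channel of the endoplasmic reticulum, had the widest spread of the members, SD 0.83, with 57.4, 129.9, 45.2, 11.9 and 30.1 in CSDS10 replicates 1 to 5, 60.3, 56.2, 59.9, 37.6 and 61.6 in CSDS30 replicates 1 to 5, and 44.7, 79.9 and 77.9 in control replicates 1 to 3. Its range was set within CSDS10 by replicate 2 at the top and replicate 4 at the bottom, and CSDS30 libraries varied little beside them. Ddn, the postsynaptic protein dendrin, had 42.7, 117, 54.6, 60.98 and 46.3 in CSDS10 replicates 1 to 5, 36.02, 14.1, 45.2, 60.7 and 127 in CSDS30 replicates 1 to 5, and 54.5, 71.2 and 74.5 in control replicates 1 to 3. There CSDS30 replicate 5 was the highest library and CSDS30 replicate 2 the lowest, so that this group alone covered the range of the 13 libraries.

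The NMDA receptor subunit gene Grin2a had 50.04, 70.6, 43.3, 37.3 and 43.9 in CSDS10 replicates 1 to 5, 68.9, 10.9, 46.3, 41.1 and 70.3 in CSDS30 replicates 1 to 5, and 33.5, 73.8 and 72.2 in control replicates 1 to 3. CSDS30 replicate 2 was the lowest of the 13 libraries, and the other CSDS30 libraries lay between 41.1 and 70.3. Grin3a, another NMDA receptor subunit gene, had 57.4, 81.9, 50.8, 11.9 and 69.1 in CSDS10 replicates 1 to 5, 62.6, 42.2, 41.02, 59.9 and 48.5 in CSDS30 replicates 1 to 5, and 27.3, 70.4 and 51.6 in control replicates 1 to 3. CSDS10 replicate 4, the library with the fewest reads, was the lowest there. Sgcz, the zeta-sarcoglycan gene, had a mean of 63.2 ± 28.9 in CSDS10, 50.5 ± 24.4 in CSDS30 and 61.9 ± 17.5 in control.

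**Figure D3:**
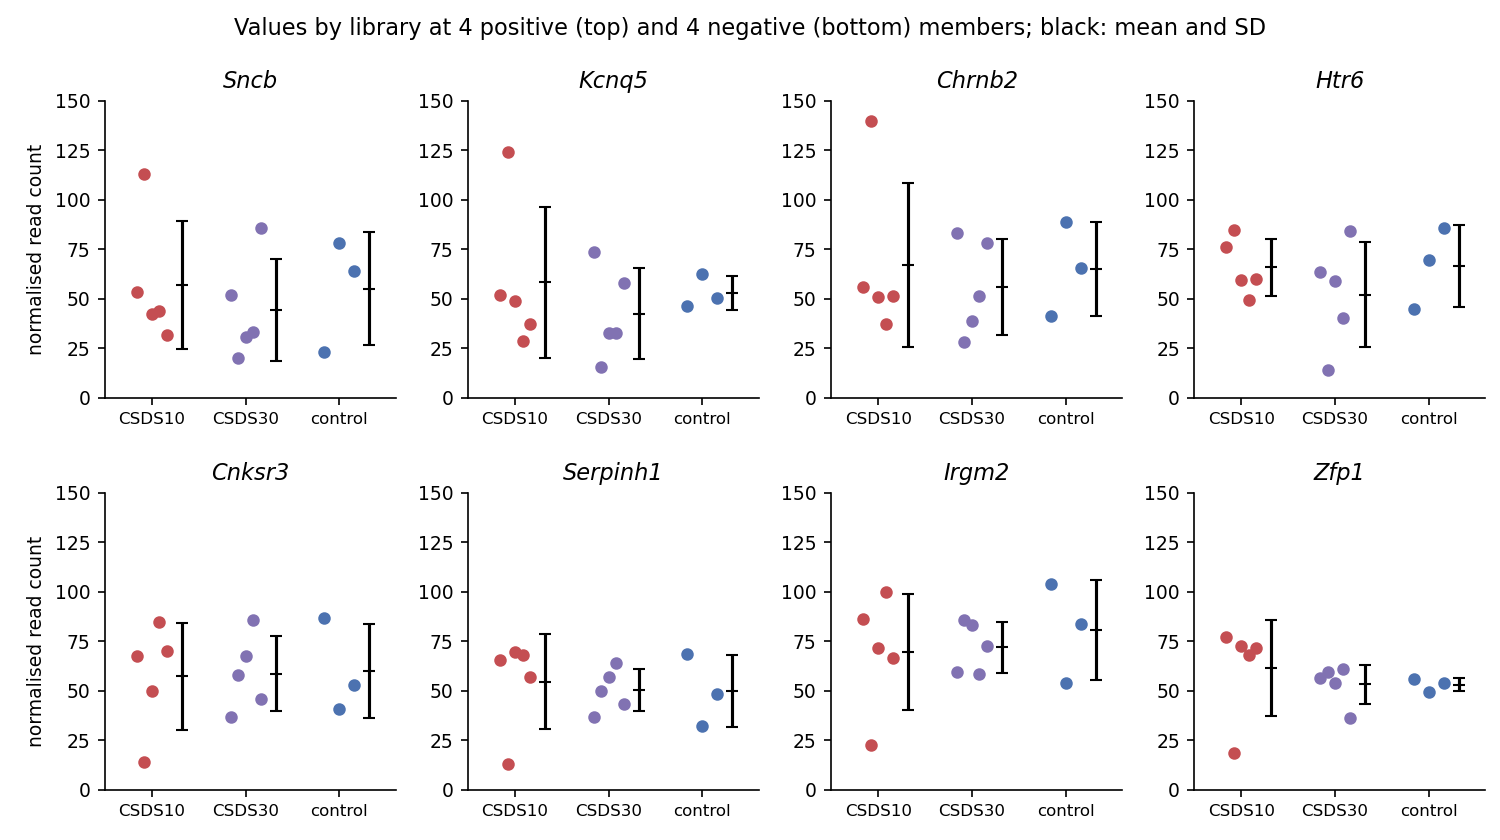
Normalised read count by library (points) with group mean and SD (black) at 4 positive members (Sncb, Kcnq5, Chrnb2 and Htr6) and 4 negative members (Cnksr3, Serpinh1, Irgm2 and Zfp1). The groups overlap at each of the 8 genes, and 1 CSDS10 point, replicate 2, lies at the end of its group in each panel.

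The lowest scores were those of Cnksr3, Cyp4f17, Pprc1, Serpinh1, Hjurp and Mmd. Cnksr3, on chromosome 10, encodes a scaffold protein of the connector enhancer of KSR family, and its summit had 67.3, 14.1, 49.9, 84.7 and 69.9 in CSDS10 replicates 1 to 5, 36.8, 57.8, 67.3, 85.6 and 45.7 in CSDS30 replicates 1 to 5, and 86.6, 40.8 and 52.7 in control replicates 1 to 3. Of the 13 libraries CSDS10 replicate 2 was the lowest, and control replicate 1 was more than 2 times control replicate 2. Serpinh1, the collagen chaperone Hsp47, had 65.6, 12.7, 69.7, 67.8 and 56.9 in CSDS10 replicates 1 to 5, 36.8, 49.98, 56.8, 64.2 and 43.5 in CSDS30 replicates 1 to 5, and 68.5, 32.1 and 48.1 in control replicates 1 to 3. The other CSDS10 libraries lay between 56.9 and 69.7, far above CSDS10 replicate 2. Pprc1, a coactivator related to PGC-1 and the gene whose AT-richer promoter is printed above, had 46.8, 15.5, 54.6, 66.1 and 52.04 in CSDS10 replicates 1 to 5, 54.8, 76.5, 55.7, 71.01 and 29.7 in CSDS30 replicates 1 to 5, and 68.5, 36.5 and 36.7 in control replicates 1 to 3. CSDS30 replicates 2 and 4 and control replicate 1 were high, and CSDS10 replicate 2 was low.

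Hjurp, the chaperone that deposits the centromeric histone CENP-A, had 2 neighbouring members, and the weaker had 63.2, 22.6, 58.4, 67.8 and 63.4 in CSDS10 replicates 1 to 5, 39.9, 70.3, 87.3, 88.97 and 42.03 in CSDS30 replicates 1 to 5, and 102, 31.3 and 38.97 in control replicates 1 to 3. Cyp4f17, a cytochrome P450 gene, averaged 47.5 ± 22.2 in CSDS10, 57.4 ± 20.1 in CSDS30 and 47.6 ± 23.6 in control, and Mmd, of the progestin and adipoQ receptor family, 45.1 ± 16.02, 58.5 ± 21.9 and 47.8 ± 24.6 in those groups. Erbb2, a receptor tyrosine kinase gene among the 10 with the widest spread, went less with the axis (score -0.61), since CSDS10 replicate 2 (21.2) and CSDS30 replicate 2 (20.3) were both low there.

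A gene boundary lay within 2 kb of 823 members (82.3%, against 86.7% of strong summits not chosen). Among those not chosen with a mean below the members' upper quartile, and so nearer to members in level, it was 81.3%. A further 155 members lay inside a gene beyond 2 kb, and 22 lay outside genes. The nearest gene was protein-coding at 695 members and a long noncoding RNA at 110. Within 2 kb of members there were 890 genes, of which 714 were protein-coding and 142 were long noncoding RNA genes. The members lay in 858 called regions: 746 regions held 1 member and 112 held 2 to 5, and members of both signs shared a region in 4 cases. Of 11435 named protein-coding genes with a strong summit within 2 kb, 451 (3.94%) had a positive member, 248 (2.17%) a negative one and 4 had both.

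Potassium channels, receptors for glutamate, GABA and serotonin, and synaptotagmins set the firing and the synaptic transmission of neurons. These 5 families were picked after the values were seen, so their counts, to be read against those shares, are a description. Potassium channel genes had positive members at 10 of 53 with a strong summit (Kcna1, Kcna3, Kcnb2, Kcnc1, Kcnc2, Kcnh2, Kcnk12, Kcnk3, Kcnq5 and Kcnv1) and negative members at 0. Glutamate receptor genes had positive members at 6 of 16 (among them Grid1, Grin2a, Grin3a, Grm4 and Grm7). GABA receptor genes had them at 7 of 11 (among them Gabbr2, Gabra2, Gabra4, Gabra5, Gabrb1 and Gabrg3), where neighbouring genes such as Gabra4 and Gabrb1 shared summits. Synaptotagmin genes, whose products sense calcium in vesicle release or traffic, had them at 4 of 12 (Syt10, Syt13, Syt14 and Syt16), and serotonin receptor genes at 3 of 4 (Htr1b, Htr5a and Htr6). When members were chosen without CSDS10 replicate 2, the counts of genes with a positive member were 4 for potassium channels, 4 for glutamate receptors, 8 for GABA receptors, 2 for synaptotagmins and 2 for serotonin receptors. Without CSDS30 replicate 2 they were 9, 4, 7, 5 and 2.

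Over the 16 potassium channel members the median normalised read count was 54.96, 97.4, 48.9, 38.1 and 45.1 in CSDS10 replicates 1 to 5, 63.8, 30.5, 46.8, 38.9 and 73.2 in CSDS30 replicates 1 to 5, and 41.6, 65.6 and 63.04 in control replicates 1 to 3. CSDS10 replicate 2 was the highest of its group at 16 of the 16 and CSDS30 replicate 2 the lowest of its group at 12. Over all positive members CSDS10 replicate 2 was the highest of its group at 597 of 670, since its deviation largely sets the sign. The 16 of 16 is therefore not particular to potassium channels. Without CSDS10 replicate 2 the CSDS10 mean was 46.8 ± 7.1 (SD, n = 4), against 56.7 ± 13.2 in control (SD, n = 3). Over the 8 glutamate receptor members it was 56.6, 83.3, 42.4, 41.5 and 52.9 in CSDS10 replicates 1 to 5, 64.2, 31.2, 45.8, 43.2 and 72.1 in CSDS30 replicates 1 to 5, and 39.5, 69.9 and 60.2 in control replicates 1 to 3. Over the 7 GABA receptor members it was 49.2, 87.5, 58.4, 44.04 and 47.2 in CSDS10 replicates 1 to 5, 67.3, 37.5, 46.3, 35.9 and 68.8 in CSDS30 replicates 1 to 5, and 34.2, 61.7 and 61.9 in control replicates 1 to 3. In both families control replicate 1 was the lowest control and CSDS30 replicate 5 the highest CSDS30 library.

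The serotonin receptor Htr6, whose summit lay at -22 bases from its start, had 76.3, 84.7, 59.3, 49.1 and 60.2 in CSDS10 replicates 1 to 5, 63.4, 14.1, 58.9, 40.2 and 84.1 in CSDS30 replicates 1 to 5, and 44.7, 69.5 and 85.97 in control replicates 1 to 3. Gabbr2, a subunit of the metabotropic GABA receptor, had 51.7, 100.2, 58.4, 22.02 and 43.9 in CSDS10 replicates 1 to 5, 50.9, 37.5, 51.5, 24.8 and 81.2 in CSDS30 replicates 1 to 5, and 37.03, 78.2 and 61.9 in control replicates 1 to 3. CSDS30 replicate 2 was the lowest library at Htr6, and CSDS10 replicate 4 was the lowest at Gabbr2.

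Interferon-induced genes and immunity GTPases, also picked after the values were seen, stood at the negative end. Negative members lay within 2 kb of 12 of the 34 with a strong summit (Ifi35, Ifih1, Ifit1, Ifit1bl2, Irgm1, Irgm2, Mx2, Oas1b, Oas1c, Oasl2, Trim12c and Trim25), and positive members of 0. Ifit1 with Ifit1bl2 and Oas1b with Oas1c shared summits. Ifih1 is a sensor of double-stranded RNA, Oas and Oasl genes belong to the oligoadenylate synthetase family, and Irgm genes encode GTPases of the defence against intracellular pathogens. The median over the 12 members was 57.4, 30.3, 56.5, 80.5 and 58.5 in CSDS10 replicates 1 to 5, 40.3, 64.04, 78.4, 65.9 and 41.3 in CSDS30 replicates 1 to 5, and 71.97, 35.6 and 51.6 in control replicates 1 to 3. CSDS10 replicate 2 was the lowest of its group at 12 of 12, and CSDS10 replicate 4 and control replicate 1 were the highest of theirs in this median. Over all negative members CSDS10 replicate 2 was the lowest of its group at 305 of 330, so the 12 of 12 is not particular to these genes. Irgm2 had 86.1, 22.6, 71.5, 99.9 and 66.7 in CSDS10 replicates 1 to 5, 59.5, 85.9, 83.1, 58.2 and 72.5 in CSDS30 replicates 1 to 5, and 104, 53.9 and 83.7 in control replicates 1 to 3. Chosen without CSDS10 replicate 2, negative members lay at 8 of these genes, and without CSDS30 replicate 2 at 14.

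Other gene lists, chosen with earlier results of these data known, held few members. Zinc finger genes with Zfp symbols had positive members at 4 and negative members at 9 of 299. The H3K4 methylation machinery had 3 positive (Kmt2a, Setd1b and Ing1) and 1 negative (Setd1a) of 23. The summit counted for Setd1a, a catalytic subunit of the SET1 complexes, lay 105 bases from the start of another gene, Hsd3b7, and 592 bases from the boundary of Setd1a, and had 50.9, 19.8, 58.4, 77.9 and 59.4 in CSDS10 replicates 1 to 5, 46.2, 90.6, 61.00, 60.7 and 31.9 in CSDS30 replicates 1 to 5, and 54.5, 55.6 and 60.7 in control replicates 1 to 3. Setd1b, its paralogue, had 88.6, 133, 63.1, 64.4 and 46.3 in CSDS10 replicates 1 to 5, 65.8, 34.4, 90.4, 29.9 and 76.8 in CSDS30 replicates 1 to 5, and 60.8, 82.5 and 77.9 in control replicates 1 to 3. In CSDS10 replicate 2 the first summit was low and the second high within CSDS10.

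Developmental transcription factors had 2 positive of 11 (among them Lhx2), activity-regulated genes 1 positive of 28 (Egr4), clustered protocadherins 1 of 5 (Pcdhac2), cytosolic ribosomal protein genes 1 of 77 (Rps28, on a summit shared with Ndufa7), mitochondrial ribosomal protein genes 1 negative of 73 (Mrpl16) and oxidative phosphorylation genes 1 of each sign of 70 (Ndufa7 and Uqcrb). Glucocorticoid and stress-axis genes (10 with a strong summit), heat shock and chaperone genes (26), proteasome genes (35) and histone genes (35) had none. Among marker lists, excitatory neurons had 1 gene with positive members (Emx1) of 5, astrocytes 1 (Slc1a2) of 6, and ependymal cells and choroid plexus 1 negative (Msx1) of 2. Inhibitory neurons (1 with a strong summit), striatal neurons (5), oligodendrocytes (6), microglia (2), endothelial and mural cells (5) and blood (1) had none.

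The summed level of the excitatory neuron markers, 14 genes of which 1 has members, was 618, 919, 562, 656 and 668 in CSDS10 replicates 1 to 5, 689, 545, 613, 602 and 896 in CSDS30 replicates 1 to 5, and 595, 762 and 677 in control replicates 1 to 3. CSDS10 replicate 2 and CSDS30 replicate 5 were the highest and CSDS30 replicate 2 the lowest. The highest and the lowest library were not particular to those markers. CSDS10 replicate 2 had the highest summed level in 17 of the 27 gene lists, among them the neuronal families picked after the values were seen. In 10 of these, cytosolic ribosomal protein and proteasome genes among them, CSDS30 replicate 2 had the lowest. The place of CSDS30 replicate 5 varied. Of the 13 libraries it ranked 2 for excitatory neuron markers and serotonin receptor genes, but 12 for cytosolic ribosomal protein and 11 for proteasome genes. For cytosolic ribosomal protein genes CSDS10 replicate 2 had 10004 and the next library, CSDS10 replicate 3, had 9392. The inhibitory neuron markers ranged from 361 to 447 in CSDS10, 385 to 449 in CSDS30 and 350.1 to 471 in control, the astrocyte markers from 554 to 655, 531 to 620.2 and 553 to 641, and the oligodendrocyte markers from 571 to 639, 575 to 737 and 676 to 700.2 in those groups. The part that cell makeup has in the members' pattern was not tested.

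Sequence content differed between the signs. Inside the 300-base RefSeq windows lay 6160 strong summits, of which 68 were positive and 44 negative members. The median GC content of the window was 74.0% at positive members, 53.7% at negative members and 65.3% at strong summits not chosen, with 35.5, 16.5 and 24 CpGs. Positive members were 0% of the 228 summits in windows of at most 50% GC and 6.32% of the 190 in windows above 80%. Negative members were 4.82% and 0% of those. Over the 6048 summits not chosen, the score and the GC content had a Spearman correlation of 0.54, a description over summits that share libraries. Recomputed with all strong summits in windows, it was 0.55, and 0.52 when CSDS10 replicate 2 was left out of the choice and the component.

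**Figure D4:**
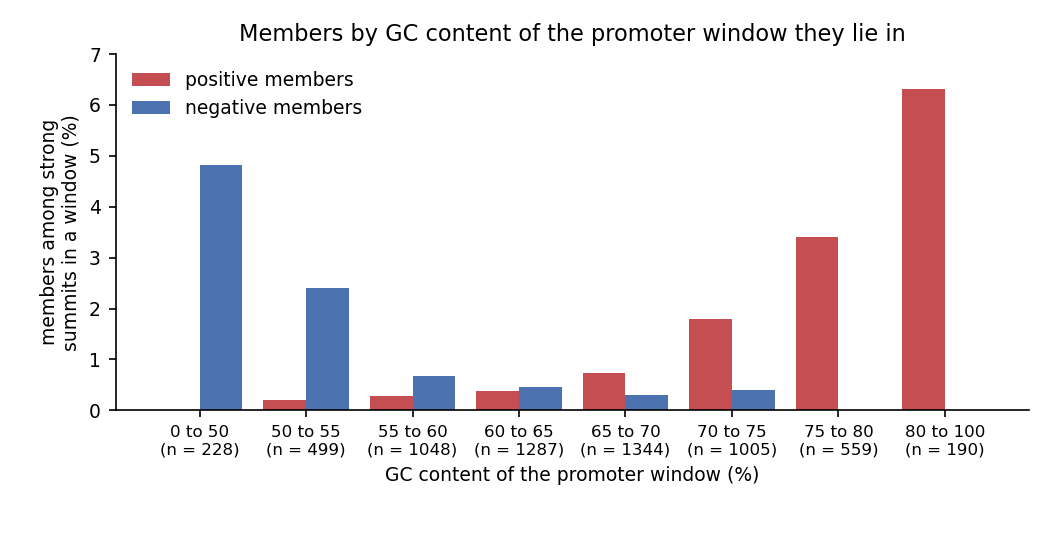
Share of strong summits inside a promoter window that are positive or negative members (y axis, percent), by GC content of the window (x axis, percent, with the number of summits). Positive members make up 6.32% of the summits above 80% GC and 0% at or below 50%, and negative members 0% and 4.82%.

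The same axis could be seen library by library in summits outside the members. Among summits not chosen in windows above 80% GC (178 summits), the median log2 deviation from the group mean was 0.38 in CSDS10 replicate 2 and -0.18 in CSDS10 replicate 4, 0.22 in CSDS30 replicate 5 and -0.31 in CSDS30 replicate 2, and 0.04 in control replicate 2 and -0.07 in control replicate 1. In windows of at most 50% GC (217 summits) the same libraries had -0.17, 0.14, -0.29, 0.10, -0.05 and 0.10. The sign turned round between low and high GC in each of these 6 libraries. CSDS30 replicates 1 and 3 did not turn: they were above 0 at both ends. GC content moved with the members' sign, and its part in the spread was not tested. The ratio of strong to weak summits followed the weights in part. In CSDS30 replicates 5, 1, 3, 4 and 2, listed from the highest weight to the lowest, it was 2.639, 2.636, 2.560, 2.516 and 2.278. In CSDS10 replicate 4, with a weight of -0.34, it was 2.67, above the 2.57 of CSDS10 replicate 3, with -0.13. In control replicate 1, with a weight of -0.28, it was 2.72, above the 2.57 of control replicate 3, with a weight of 0.06. The part of this ratio in the spread was not tested.

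**Figure D5:**
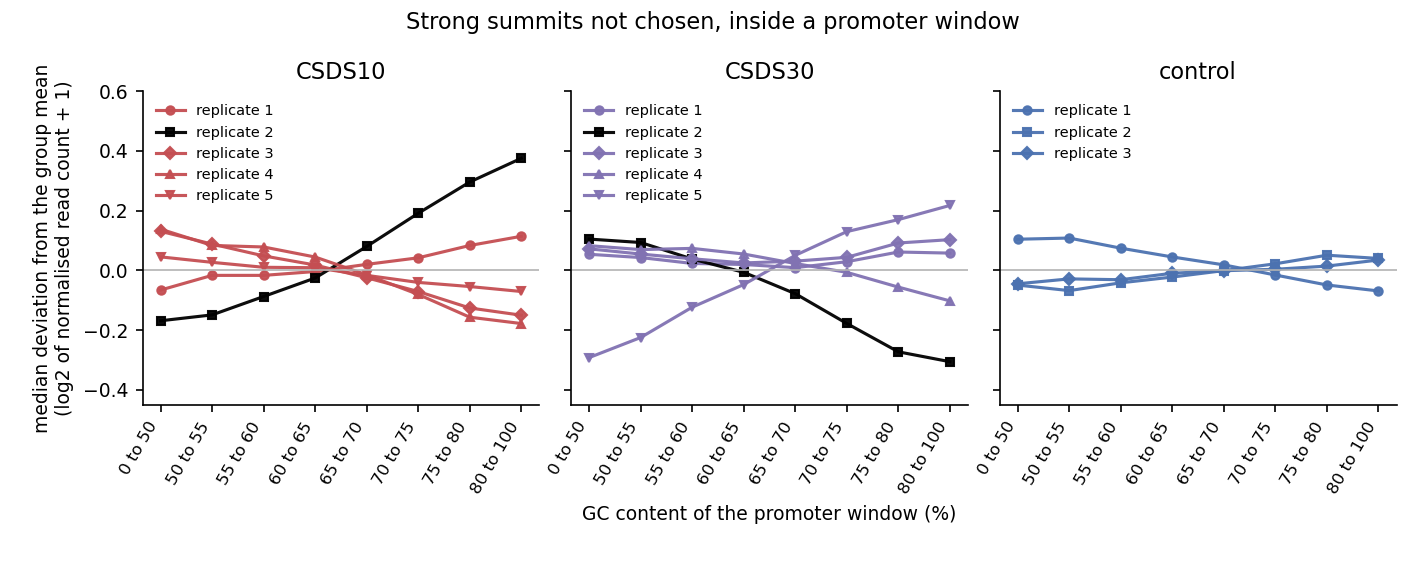
Median deviation of each library from its group mean (y axis, log2 of normalised read count + 1) by GC content of the promoter window (x axis, percent), at strong summits that are not members; black lines are CSDS10 replicate 2 and CSDS30 replicate 2. CSDS10 replicate 2 climbs to 0.38 and CSDS30 replicate 2 descends to -0.31 above 80% GC.

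Positive members also lay in wider regions. The distance from the first to the last summit of the region had a median of 1534.5 bases at positive members, 882.5 at negative members and 1068 at strong summits not chosen. Negative members lay nearer the edge: 38.2% were the outermost summit of their region, against 12.5% of positive members and 24.8% of those not chosen. Of members within 2 kb of a RefSeq start, 40.0% of negative and 21.9% of positive members lay upstream of it, against 24.99% of strong summits not chosen. Among those not chosen with a mean below the members' upper quartile, 32.6% lay upstream. In that set the median distance from first to last summit was 1081 bases, and 22.5% were the outermost summit. Other summits of the same region, more than 500 bases from a member and not chosen, had the member's sign in 80.4% of 1298 pairs for positive members and 57.4% of 458 pairs for negative members, where 60.6% of strong summits not chosen had a positive score.

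Among the RefSeq windows of genes near members, GGGCGG or its reverse CCGCCC, the core of the GC box bound by Sp1, was found in 74.1% of 398 windows at positive members and 64.1% of 217 at negative members, against 35.7% of all 32851 windows. The core of the TATA box, spelled TATAAA, was found on either strand in 3.27% and 6.45%, against 13.6%. TGACGTCA, the full cAMP response element, was in 3.52% and 4.15%, against 1.79%. Each motif was sought on both strands, and the first and the last are not independent of GC and CpG content. A match is a run of letters and not a bound site. All windows were counted whether or not a strong summit lay near them, and no share was computed for strong summits not chosen. The differences from all windows therefore cannot be read as particular to members.

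No member passed the test in any comparison of the groups. The test was limma on log2(normalised read count + 1) over 152270 summits, with Benjamini-Hochberg adjustment over all of them and a threshold of 0.05, in 1 fit of the 13 libraries. It called 0 summits (0.0% of those tested) for CSDS10 against control, 0 (0.0%) for CSDS30 against control and 0 (0.0%) for CSDS30 against CSDS10, and edgeR's quasi-likelihood test and DESeq2 on the recovered reads also called 0. At an unadjusted limma p under 0.05 there were 11, 38 and 57 members, against 3.21%, 3.41% and 5.12% of all summits tested and 2.72%, 4.94% and 7.22% of strong summits. A wide spread within groups lowers each member's test statistic, so a small count is tied to the choice. A member's log2 fold change had a standard error of 0.28 (median) against control and 0.24 between the stress groups.

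The median share of a member's variance that lay between groups was 6.91%, against 13.4% in strong summits not chosen. Labels unrelated to the values give 16.7% on average. No median was computed for such labels, so this average cannot place either median above or below what they give. A wide spread within groups lowers the share between groups, so the members' lower value is tied to the choice. The median log2 fold change over members was -0.02 for CSDS10 against control, -0.09 for CSDS30 against control and -0.08 for CSDS30 against CSDS10, with 0.01, -0.05 and -0.06 in strong summits not chosen and 0.00 over all summits tested in each. Positive members had -0.03, -0.20 and -0.16, and negative members 0.02, 0.11 and 0.06. Comparisons that share libraries are not independent. Without CSDS30 replicate 2 the medians over members were -0.01 for CSDS30 against control and -0.01 for CSDS30 against CSDS10, and without CSDS10 replicate 2 that for CSDS10 against control was -0.08.

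The groups did not overlap at 2 members for CSDS10 against control (2.98% of all summits tested and 2.81% of strong summits did not), at 9 for CSDS30 against control (2.96% and 4.1%) and at 0 for CSDS30 against CSDS10 (0.72% and 0.921%). Both of the 2 were higher in CSDS10 (1.59% of all summits tested and 1.59% of strong summits were): one lay near Epc1, the other on chromosome 1 at position 137900040. Of the 9, 8 were lower in CSDS30 (1.74% of all summits tested and 3.24% of strong summits were), among them, chosen after their values were seen, E2f1, a transcription factor gene of the cell cycle, and Grk2, a kinase that acts on G protein-coupled receptors. E2f1 had 98.4, 81.9, 92.2, 44.04 and 63.4 in CSDS10 replicates 1 to 5, 64.99, 28.1, 69.4, 81.3 and 68.1 in CSDS30 replicates 1 to 5, and 81.8, 109 and 82.5 in control replicates 1 to 3. Each CSDS30 library was below each control there, and CSDS30 replicate 2 was the lowest of the 13 libraries.

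Named by the smallest p-values, Cd200, a membrane glycoprotein that restrains myeloid cells, averaged 59.1 ± 8.7 in CSDS10 and 55.5 ± 18.4 in CSDS30 (SD, n = 5 each), and 36.6 ± 19.9 in control (SD, n = 3). Its libraries had 62.3, 47.99, 54.6, 71.1 and 59.4 in CSDS10 replicates 1 to 5, 64.99, 34.4, 80.98, 42.8 and 54.3 in CSDS30 replicates 1 to 5, and 53.8, 14.8 and 41.3 in control replicates 1 to 3. Control replicate 2, at 14.8, was the lowest of the 13 libraries. The log2 fold change was 0.84 ± 0.29 (SE) for CSDS10 against control and 0.71 ± 0.29 for CSDS30 against control in limma, with adjusted p = 1.00 in both. Without control replicate 2 the Cd200 values were 0.31 and 0.17, and without control replicate 1 that for CSDS30 was 1.07. Carf, a calcium-responsive transcription factor gene, had a log2 fold change of 0.59 ± 0.26 (SE) for CSDS10 against control, where CSDS10 averaged 101.8 ± 26.5 and control 67.9 ± 22.9. Slc35f1, a solute carrier gene, had -0.68 ± 0.28 (SE) for CSDS10 against control, with 41.9 ± 15.1 in CSDS10 and 64.6 ± 18.5 in control, and -0.39 without CSDS10 replicate 4. Rfx2, a transcription factor gene of ciliated cells, had -0.64 ± 0.29 (SE), with 43.3 ± 17.5 in CSDS10 and 62.0 ± 10.6 in control, and -0.28 without CSDS10 replicate 2.

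For CSDS30 against control, Peli1, a ubiquitin ligase gene of innate immune signalling, had 58.2, 73.4, 63.1, 55.9 and 64.2 in CSDS10 replicates 1 to 5, 71.3, 17.2, 39.97, 48.8 and 55.1 in CSDS30 replicates 1 to 5, and 67.1, 79.1 and 73.4 in control replicates 1 to 3. The log2 fold change was -0.78 ± 0.27 (SE), with adjusted p = 1.00 in limma. CSDS30 replicate 2 was far below the other CSDS30 libraries, without it the log2 fold change was -0.47, and the groups overlapped in CSDS30 replicate 1. Ubp1, a transcription factor gene of the CP2 family, had -0.70 ± 0.28 (SE), with 46.9 ± 13.3 in CSDS30 and 75.1 ± 20.3 in control. Nek7, a kinase of the NLRP3 inflammasome, had 0.68 ± 0.29 (SE), with 60.4 ± 14.4 in CSDS30 and 42.6 ± 28.0 in control. With control replicate 2 left out the Nek7 value was 0.17, and with control replicate 1 left out it was 1.17.

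For CSDS30 against CSDS10, Kbtbd2, an adaptor of a cullin ubiquitin ligase, had 94.3, 120.0, 48.01, 69.5 and 66.7 in CSDS10 replicates 1 to 5, 53.2, 21.9, 52.6, 58.2 and 51.4 in CSDS30 replicates 1 to 5, and 56.6, 65.2 and 55.02 in control replicates 1 to 3. The log2 fold change was -0.74 ± 0.23 (SE), with adjusted p = 0.963 in limma, and -0.49 without CSDS30 replicate 2, and the groups overlapped. Kpna3, a nuclear import receptor gene, had -0.74 ± 0.26 (SE), with 50.5 ± 20.4 in CSDS30 and 87.6 ± 48.9 in CSDS10, and -0.46 without CSDS10 replicate 2. Asap3, a GTPase-activating protein gene for Arf proteins, had 0.55 ± 0.24 (SE), with 62.6 ± 19.3 in CSDS30 and 43.5 ± 14.5 in CSDS10, and Slc35f1 had 0.55 ± 0.24 (SE), with 58.3 ± 11.9 in CSDS30 and 41.9 ± 15.1 in CSDS10. Without CSDS10 replicate 2 the Asap3 value was 0.27, and without CSDS10 replicate 4 that of Slc35f1 was 0.26.

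Of the 4 strongest members, 3 had scores between 0.13 and 0.52 and 1 followed the axis. A cluster near the centromeric end of the assembled chromosome 9, with no gene within 2 kb, held the 3. The strongest, at position 3022521, had 347, 545, 269, 257 and 196 in CSDS10 replicates 1 to 5, 194, 417, 337, 266 and 222 in CSDS30 replicates 1 to 5, and 219, 400.5 and 459.6 in control replicates 1 to 3. CSDS10 replicate 2 and CSDS30 replicate 2 were the highest of their groups there, and control replicate 1 was the lowest control. At position 3024134, SD 0.71, it was 131, 279, 102, 99.9 and 78.9 in CSDS10 replicates 1 to 5, 64.99, 205, 163, 108 and 60.9 in CSDS30 replicates 1 to 5, and 112, 228 and 232 in control replicates 1 to 3. The scores of the 3 summits were 0.52, 0.13 and 0.41. The other was the stronger of the Hjurp summits, with a mean of 158 and a score of -1.43. It had 183, 70.6, 182, 230.4 and 162 in CSDS10 replicates 1 to 5, 150.3, 161, 185, 197 and 104 in CSDS30 replicates 1 to 5, and 190.1, 116 and 126 in control replicates 1 to 3. CSDS10 replicate 2 and CSDS30 replicate 5 were the lowest of their groups.

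At the limit of the choice the spread changed little from summit to summit. The 3 members just inside had an SD of 0.481 to the third decimal, as did the 3 just outside, Zfp407 (0.481), Nkain1 (0.481) and Egln1 (0.481). The last gene inside was Naa50, an N-terminal acetyltransferase gene, where CSDS10 replicate 2 had 137 and CSDS30 replicate 2 had 26.6 normalised reads.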

How the data were processed

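The table read here holds 13 H3K4me3 ChIP-seq libraries and 1 row per summit, over peaks common to the libraries. The protocols in the labels name digestion by micrococcal nuclease, precipitation with an H3K4me3 antibody, 6 to 8 cycles of PCR and single-end reads of 100 bases. The submitters' processing notes list the tools Trimmomatic, Bowtie2, MACS2 and DESeq2 and the builds mm10 and GRCm38.p5. The handling of duplicates and the window for counting reads were not given in the sources used here. Each deposited value is a normalised signal whose scaling no header describes: 100% of values were whole multiples of 1 step per library (tolerance 0.001 reads), which returned whole reads. A score deposited for each peak (1.30 to 11025, of unstated scale) served no test. The input library was not analysed here. No label mentions molecular identifiers, so PCR copies may count as separate reads, and neighbouring summits of a region (median 179 bases apart) can share fragments.

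The members were chosen as the text states. Principal components were taken of log2(value + 1) after removal of each group's mean (Python 3.11.15, numpy 2.4.6). Groups were compared with limma 3.58.1 (R 4.3.3) with a variance trend, in 1 fit of 13 libraries with no covariate, over the 152270 summits kept by edgeR's filterByExpr; edgeR 4.0.16 and DESeq2 1.42.0 were run on the recovered reads. A pseudocount of 1 understates the change of low summits. On counts simulated for 152270 summits with 200 changed by 2-fold, limma recovered 62% for CSDS10 against control. It recovered 61.5% for CSDS30 against control and 69% for CSDS30 against CSDS10, and 97.5%, 97.5% and 99% of those changed by 3-fold. False calls numbered 2 to 7 per comparison and fold. The simulated counts were independent, with the dispersion usual at a summit's level. They held no pattern shared over summits and no spread like that of the members, so these percentages do not apply to members. Genes came from RefSeq gene boundaries (GRCm38.p6) within 2 kb, without exons or introns; start sites, strand and GC content came from RefSeq promoter windows, in which chromosome 18 was not used here.

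The members, the gene lists and the tests were chosen with earlier results of these data known. Named genes followed a rule: protein-coding genes with a symbol (no gene models, no pseudogenes, no olfactory or vomeronasal receptors), namely the 10 with the widest spread, the 6 with the highest and the 6 with the lowest score, the 2 smallest limma p-values per direction and comparison, the 4 strongest members, the 3 on each side of the limit of the choice, and up to 4 members per gene list. Some genes of the lists are counted but not reported here by name. Alternatives were another pseudocount, TMM scaling, no filter, other tests, a replicate block, other limits of the choice, other gene distances and leaving out each library in turn.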

Additional observations from a re-analysis of the deposited data

Results flagged for a closer look

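In groups of 5 libraries, a value was looked at again when the gap between the highest or lowest library and its neighbour exceeded 0.71 of the group's range. Of 208 groups tested, 27 (12.98%) did so, where chance gives about 1 in 20; 20 were at CSDS10 replicate 2 and 3 at CSDS30 replicate 2. Members were chosen for wide spread within groups, so such gaps are tied to the choice, and no explanation was tested.

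CSDS10 replicate 2 was far above the other CSDS10 libraries in the median of positive members (96.0) and at Ddn (117), Sncb (113), Galnt13 (133), Kcnq5 (124), Chrnb2 (139.7), Naa50 (137), Emx1 (123), Slc1a2 (124), Egr4 (81.9), Syt13 (103) and the chromosome 9 summit at position 3024134 (279). It was far above them also in the summed value of the strongest summits of the potassium channel genes (5576) and of the serotonin receptor genes (741). It was far below them in the median of negative members (26.8) and at Serpinh1 (12.7), Hjurp (22.6), Asap3 (18.4), Msx1 (26.8) and Zfp1 (18.4). CSDS30 replicate 2 was far below the other CSDS30 libraries at Ubp1 (23.4), Kbtbd2 (21.9) and Naa50 (26.6).

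Single libraries stood out elsewhere: CSDS10 replicate 4 was high at Ifi35 (91.5), CSDS30 replicate 4 low at Ryr2 (37.6), CSDS30 replicate 5 low at Zfp1 (36.2), and CSDS30 replicate 1 low in the summed value of developmental transcription factors (1637).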

How the results depend on the processing

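Of 402 values recomputed under alternatives, 391 kept their direction and side of the threshold, or moved by less than the spread or 1.5 times. These limits were wide, so the tally says little about stability. A median log2 fold change over members could move by 0.257 and count as kept, and the lowest obtained was -0.22. The fall of the Nek7 value from 0.68 to 0.17 counted as kept, as did each count of 0 called summits. Under each setting run, limma called 0 summits in each comparison. edgeR and DESeq2, run only with all 13 libraries and the same filter, also called 0. The members depended most on how they were chosen: 9 were chosen again with a mean of 100 or more and 531 to 905 without each library in turn, while the 500 largest are 500 of the members by construction. The first component held 44.0% at a mean of 100 or more, and 43.1% to 61.0% without each library. The median share of variance between groups was 12.3% at a mean of 100 or more and 4.94% to 10.0% without each library. Among the settings that left out 1 library, the fewest chosen again and the lowest share of the component came without CSDS10 replicate 2; the cause was not tested.

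Same-numbered libraries of different groups had deviations with correlations of -0.28 to 0.36 (11 pairs, median -0.05). Differently numbered ones had -0.42 to 0.38 (44 pairs, median 0.02). The correlations thus showed no pairing by number, but ranges that overlap cannot tell whether a shared number marks shared handling. With a replicate block the count of called summits was 0 in each comparison, and the median log2 fold change over members was 0.00 for CSDS10 against control, -0.09 for CSDS30 against control and -0.08 for CSDS30 against CSDS10. Without each library in turn these medians ran from -0.11 to 0.04, -0.22 to -0.01 and -0.15 to -0.01, and members with an unadjusted limma p under 0.05 numbered 10 to 92, 13 to 127 and 13 to 130. TMM scaling moved the libraries by -0.0106 (CSDS10 replicate 2) to 0.0116 (CSDS30 replicate 2) on the log2 scale. The shallowest library had 4512817 reads on summits, and at a mean of 56.4 normalised reads counting alone gives a log2 SD of about 0.20, which limits what 3 to 5 libraries can show.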
